A study of Sus scrofa with 4 samples.

Results

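The genes of the proteasome, chosen by their symbols and 46 of 16050 genes with values, were followed in mature (metaphase II) oocytes of the pig (Sus scrofa) matured in vitro with or without copper. The proteasome is the barrel-shaped protease that degrades proteins marked with ubiquitin. Its 20S core is a stack of rings built from α subunits, encoded by PSMA genes, and β subunits, encoded by PSMB genes, and the proteolytic sites lie inside the β rings. The 19S cap recognizes ubiquitin, removes it and feeds the unfolded protein into the core by means of ATPases, encoded by PSMC genes, and non-ATPase subunits, mostly encoded by PSMD genes. In oocytes the exit from each meiotic metaphase depends on the degradation of cyclin B and securin by the proteasome, and the mature oocyte carries stored mRNA for its subunits.

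Gene symbols made of PSM, a letter from A to G and a number chose 49 rows of the deposited table of 30684 rows, and 47 of these held values. One of the 47, PSMC3IP (identifier 100521397), is a cofactor of meiotic recombination and not a proteasome subunit. It had 1.99 and 0.75 FPKM in Control 1 and 2, against 3.72 and 1.86 FPKM in Cu 1 and 3, and it was left out of the counts. The remaining 46 genes comprised 7 subunits of the 20S α ring, 7 of the 20S β ring and 3 alternative 20S subunits. The others were 6 ATPases of the 19S cap, 14 PSMD genes (non-ATPase subunits of the cap and some of its assembly factors), 5 activators or inhibitors and 4 assembly chaperones. PSMB8 and PSMB11, the subunits typical of immune cells and of the thymus, were listed without values.

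Cumulus-oocyte complexes came from ovaries collected at a slaughterhouse, and the age of the animals was not given. They were cultured for 42 to 44 h to metaphase II in maturation medium alone (Control) or in medium with copper sulfate (Cu). The dose chosen for the experiments after the dose series was 25 μg/mL Cu. Each library pooled 3 oocytes. Their mRNA was copied from oligo dT, which binds the poly(A) tail, and amplified by Smart-seq2, a method for full-length transcripts of very small samples. The part of poly(A) tail length in the levels, between genes or between libraries, was not tested. Control replicates 1 and 2 and Cu replicates 1 and 3 were analysed here, although 3 sets per group were described. Nothing stated that the libraries of a group came from separate animals or cultures, so p-values measure only the spread between these libraries, which may be technical. The values were FPKM, fragment numbers scaled to the length of the transcript and the size of the library, so that levels can be compared between genes, and values of a pair are given in the order Control 1 and 2 or Cu 1 and 3. No read numbers came with these values, so depth is unknown. Fold changes were computed on log2(FPKM + 1), which understates the changes of weakly expressed genes, and tested, with their standard errors (SE), by limma over the 8541 genes that reached 1 FPKM in 2 or more libraries. Of the 46 proteasome genes 44 were tested, and PSMB9 and PSMF1 were too low.

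The libraries carried the markers of oocytes. All 13 listed oocyte genes had values, and their summed level lay between 5628 and 9454 FPKM in the 4 libraries. Of 14 cumulus or granulosa cell genes 8 had values, with sums of 1.43 and 2.05 FPKM in the Control libraries and 2.63 and 1.05 FPKM in the Cu libraries, and AMH was listed at 0 in every library. Of 8 immune cell genes 4 had values, with sums of 0.31 and 1.09 FPKM in the Control pair against 2.25 and 0.09 FPKM in the Cu pair. Cu 1 stood apart from the other libraries. It held 9364 genes at 1 FPKM or more, against 7923 to 8162 in the other 3 libraries, and 14.2% of the tested genes were over 2 times higher in it than in any other library. The corresponding share was 0.843% for Cu 3, 0.129% for Control 1 and 0.316% for Control 2.

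The proteasome genes together took 0.978% and 0.992% of all FPKM in Control 1 and 2, and 1.08% in each of Cu 1 and Cu 3. Their mRNA levels were far from equal, although the subunits of a ring are present in equal numbers in the assembled particle. The plot of levels by gene shows this for every class. In Control oocytes 13 of the 46 genes averaged 100 FPKM or more, 5 of them 500 FPKM or more, and 20 lay in the top 10% of the genes with values. The order of the genes was similar in all libraries, with Spearman's rho across the 46 genes of 0.986 between the Control libraries, 0.869 between the Cu libraries and 0.885 to 0.965 between the groups. These are correlations across genes, which are not independent replicates.

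**Figure D1:**
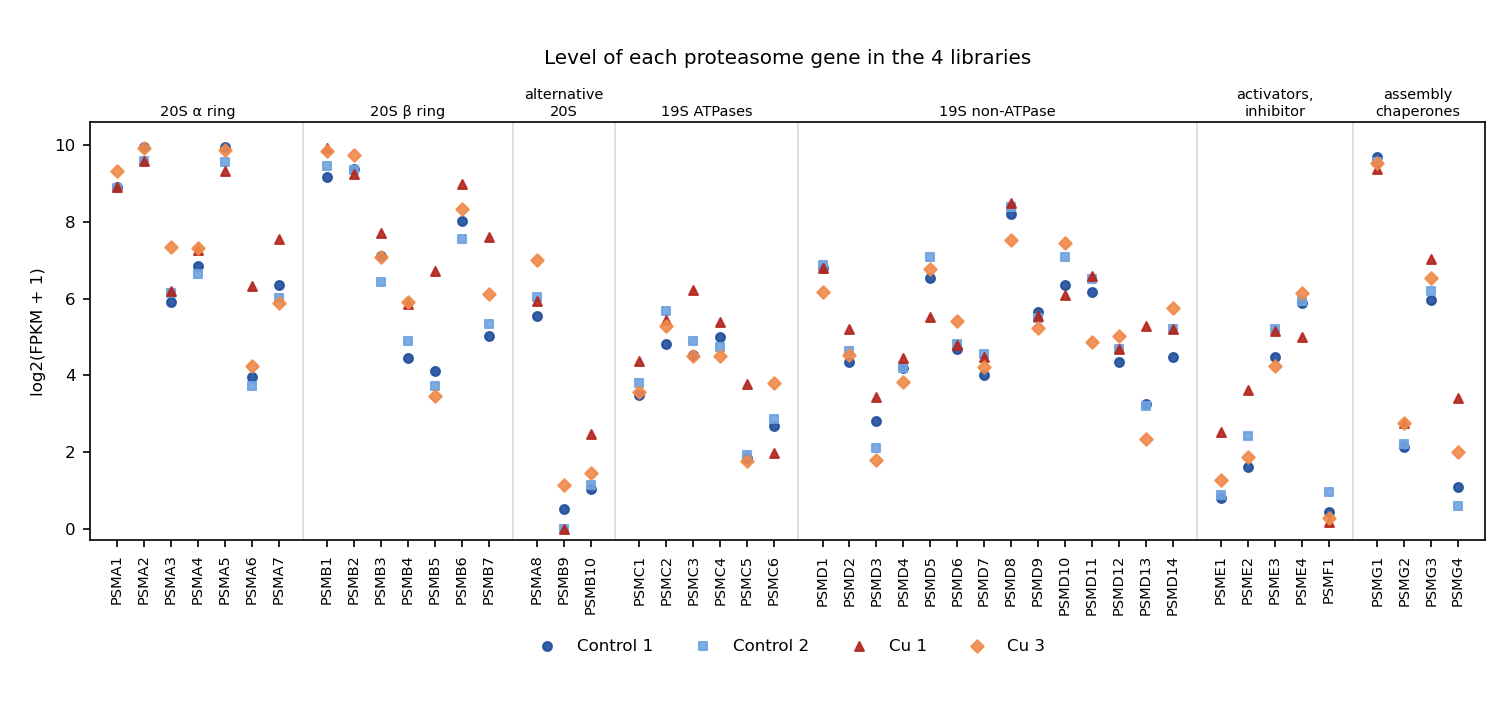
Level of each of the 46 proteasome genes as log2(FPKM + 1) (vertical axis), grouped by class along the horizontal axis, with 1 symbol for each of the 4 libraries. PSMA2, PSMA5, PSMB1, PSMB2 and PSMG1 averaged at least 500 FPKM in Control, while PSMB9 and PSMF1 stayed near 0, and Cu 1 (red triangles) lies apart from the other libraries for genes such as PSMB5, PSMA6 and PSMC5.

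By limma, 0 of the 44 proteasome genes were called at an adjusted p of 0.05, beside 0% of all tested genes. At an unadjusted p of 0.05, 4 of the 44 tested genes were higher in Cu, namely the β ring subunits PSMB4, PSMB6 and PSMB7 and the assembly chaperone PSMG4, and none was lower. That is 9.09% of the members, beside 5.58% of all tested genes called in that direction, 1.43% called lower and 7.01% in either direction. A log2 fold change of 1 or more was reached by 6 genes, or 13.6%, beside 7.6% of all genes, and a value of -1 or less by none, beside 0.843%. The Cu pair lay entirely above the Control pair in 13 genes, or 29.5%, beside 25.4% of all genes, and below them in 2 genes, or 4.55%, beside 13.4%. PSME1 and PSMG4, which are in the counts of 6 and 13, did not reach 1 FPKM in every library. The differences depended on the libraries used. Without Cu 3 the median log2 fold change of the 44 genes was 0.44, and without Cu 1 it was 0.21, beside 0.31 and 0.0023 over all tested genes. Without Control 1 and without Control 2 it was 0.29 and 0.46, beside 0.12 and 0.21. With all 4 libraries the median log2 fold change of the 44 genes was 0.36, and that of all tested genes was 0.16. By class, the median was 0.87 for the β ring, 0.54 for the α ring, 0.23 for the 19S ATPases and 0.062 for the 19S non-ATPase proteins. Relative to all tested genes these medians were 0.71, 0.37, 0.065 and -0.10. When each library was left out in turn, the β ring stayed 0.51 to 0.88 above all genes, while the α ring ran from 0.51 above them without Control 1 through 0.17 without Control 2 to -0.15 without Cu 3. The ATPases ran from -0.099 without Cu 1 to 0.31 without Control 2 and 0.33 without Cu 3, and the non-ATPase proteins stayed below all genes, from -0.20 without Cu 1 and -0.19 without Control 1 to -0.062 without Control 2. Median-of-ratios scaling and quantile normalization moved the median of all genes to 0.015 and -0.049, and the β ring then stood 0.68 and 0.78 above it.

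**Figure D2:**
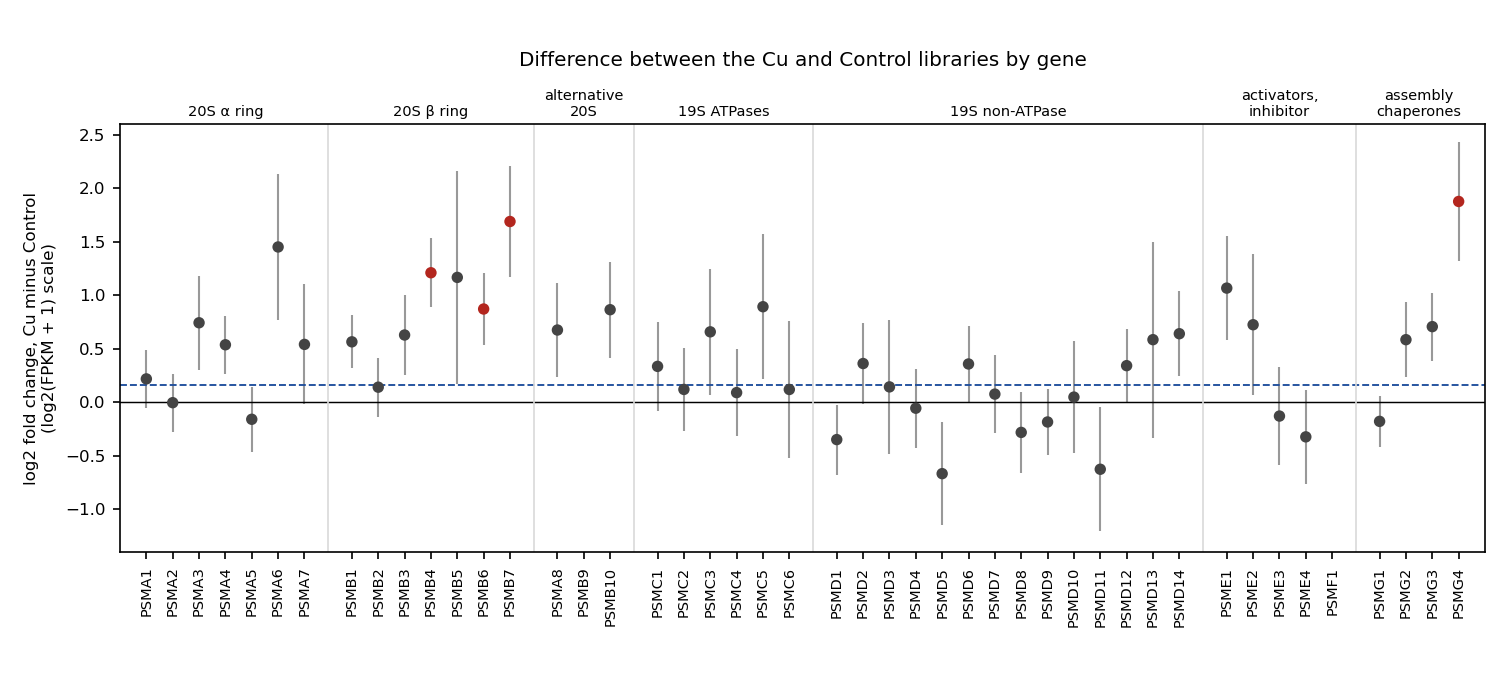
Log2 fold change between the Cu and Control libraries for the 44 tested proteasome genes, as the mean of Cu minus the mean of Control on the log2(FPKM + 1) scale, with limma's standard error (2 libraries per group). Red points mark the 4 genes at an unadjusted p of 0.05 or less (PSMB4, PSMB6, PSMB7 and PSMG4), the dashed line marks the median of all tested genes (0.16), and at an adjusted p of 0.05 none was called. PSMB9 and PSMF1 were not tested.

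The β ring contained 3 of the 4 genes at an unadjusted p of 0.05, and all 7 of its subunits had a log2 fold change above 0. Above 0 lay 64.3% of all tested genes, and PSMB2 was below 0 under median-of-ratios scaling and quantile normalization. PSMB7 (identifier 100037992, chr1:265172257-265235389 on Sscrofa11.1), the trypsin-like catalytic subunit β2, had 31.3 and 39.4 FPKM in the Control pair against 195 and 68.5 FPKM in the Cu pair. The Cu pair was entirely above the Control pair, and Cu 1 was far above Cu 3. The log2 fold change of PSMB7 was 1.69 (SE 0.52, limma adjusted p = 0.647). PSMB4 (identifier 100153923, chr4:97835544-97837909), a non-catalytic subunit, had 20.9 and 28.7 FPKM in the Control pair against 57.1 and 58.9 FPKM in the Cu pair. The Cu libraries were close to each other here, and the log2 fold change was 1.21 (SE 0.32, limma adjusted p = 0.631). PSMB6 (identifier 497065, chr12:52096009-52098164), the caspase-like catalytic subunit β1, had 258 and 188 FPKM in the Control pair against 510 and 320 FPKM in the Cu pair. The groups did not overlap, and the log2 fold change was 0.87 (SE 0.34, limma adjusted p = 0.677). Under 7 other filters, scalings and variance models PSMB4 and PSMB7 kept an unadjusted p of 0.05 or less in all 7, and PSMB6 in 2. Without Control 1 none of the 3 genes stayed at an unadjusted p of 0.05, and PSMB6 did not without Control 2 or without Cu 1 either. The log2 fold change of PSMB7 was 0.94 without Cu 1 and 2.44 without Cu 3.

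PSMB5 (identifier 100155139, chr7:76014576-76021922), the chymotrypsin-like catalytic subunit β5 and the main target of proteasome inhibitor drugs, had 16.3 and 12.1 FPKM in the Control pair against 104 and 9.93 FPKM in the Cu pair. Cu 3 was the lowest of all 4 libraries and Cu 1 the highest by far. Its log2 fold change of 1.17 had a standard error of 1.0 and turned to -0.46 without Cu 1. PSMB5 was the least abundant gene of the β ring in every library but Cu 1. PSMB1, a structural subunit, had 575 and 708 FPKM in the Control pair against 973 and 917 FPKM in the Cu pair. The groups did not overlap, at a log2 fold change of 0.57 (SE 0.25). PSMB2, another structural subunit, had 663, 657, 613 and 863 FPKM in Control 1, Control 2, Cu 1 and Cu 3, so the groups overlapped. PSMB3, named after its values were seen, had 138 and 85.1 FPKM in the Control pair against 208 and 136 FPKM in the Cu pair, which also overlapped. Summed over its 7 genes, the β ring had 1710 ± 12.01 FPKM in Control (SD, n = 2) and 2517 ± 203 FPKM in Cu (SD, n = 2). By library these sums were 1702 and 1719 FPKM in the Control pair against 2660 and 2374 FPKM in the Cu pair. Between these libraries the difference was larger than the spread within either group, and most of the sum came from PSMB1, PSMB2 and PSMB6. The authors' means, which include more than these libraries, were 719 in Control and 931 in Cu for PSMB1. For PSMB2 they were 804 in Control and 716 in Cu. For both genes the authors' Control mean lay above both Control libraries, so the Control SD of the sum may understate the spread.

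The α ring, which forms the gate of the core, had no gene at an unadjusted p of 0.05. Its subunits are structural, and PSMA5 and PSMA2 were the most abundant. PSMA5 had 994 and 753 FPKM in the Control pair against 642 and 935 FPKM in the Cu pair. PSMA2 had 985 and 766 FPKM in the Control pair against 769 and 976 FPKM in the Cu pair. The groups overlapped for both genes, with log2 fold changes of -0.16 and -0.004 (SEs 0.30 and 0.27). PSMA6 (identifier 100156790) was at the other end of the ring's levels, with 14.5 and 12.1 FPKM in the Control pair against 79.3 and 17.97 FPKM in the Cu pair. The Cu pair was entirely above the Control pair, but most of the log2 fold change of 1.45 (SE 0.68) came from Cu 1, and it was 0.41 without that library. In Control 1 PSMA5 had 68.4 times the level of PSMA6, and in Cu 1 this ratio was 8.09.

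PSMA3 had 59.0 and 69.8 FPKM in the Control pair against 71.9 and 162 FPKM in the Cu pair, a log2 fold change of 0.74 (SE 0.44) with the groups apart. Here Cu 3 was the higher Cu library. PSMA7 had 80.2 and 63.8 FPKM in the Control pair against 186 and 58.4 FPKM in the Cu pair, so Cu 3 was the lowest library, and its log2 fold change of 0.54 became -0.29 without Cu 1. Of the genes named after their values were seen, PSMA4 had 115 and 98.9 FPKM in the Control pair against 152 and 158 FPKM in the Cu pair, with the groups apart, and PSMA1 had 478, 475, 478 and 644 FPKM in the order Control 1, Control 2, Cu 1 and Cu 3. The α ring sums were 2727 and 2239 FPKM in the Control pair against 2380 and 2953 FPKM in the Cu pair, and the groups overlapped. The ratio of the β ring sum to the α ring sum was 0.624 and 0.768 in Control 1 and 2 and 1.12 and 0.804 in Cu 1 and 3. It was higher in both Cu libraries, although Cu 3 and Control 2 were close.

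**Figure D3:**
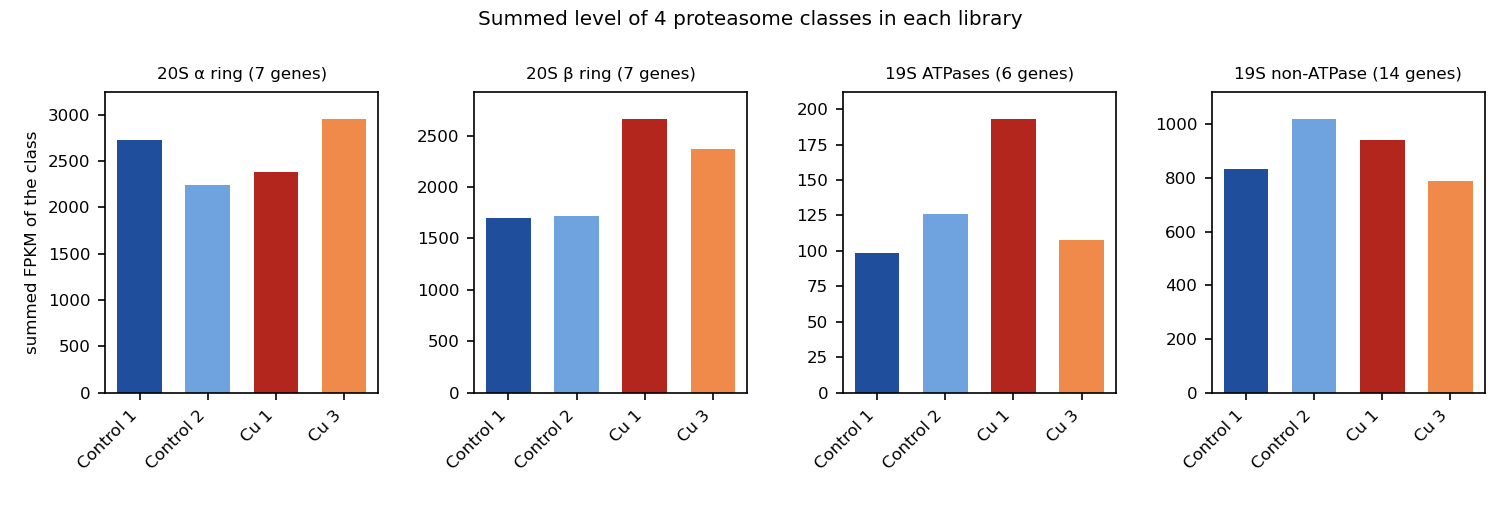
Summed FPKM (vertical axes, each starting at 0 and with its own scale) of the 7 α ring, 7 β ring, 6 ATPase and 14 non-ATPase genes in each library, 1 bar per library. The β ring sums of Cu 1 and Cu 3 (2660 and 2374) lie above those of Control 1 and 2 (1702 and 1719), and in the other classes the groups overlap.

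Alternative 20S subunits replace standard ones in certain cell types. PSMA8, the α4-type subunit known from the testis, where it takes the place of PSMA7 in germ cells, had 45.9 and 64.8 FPKM in the Control pair against 60.1 and 128 FPKM in the Cu pair. Its mRNA was thus at a level like that of PSMA7, with a ratio of PSMA8 to PSMA7 of 0.572 and 1.02 in Control 1 and 2 and 0.323 and 2.19 in Cu 1 and 3. The Cu libraries held both the lowest and the highest ratio. The log2 fold change of PSMA8 was 0.68 (SE 0.44), and the groups overlapped. PSMA7 and PSMA8 are close paralogs, and how reads common to both were assigned was not tested. The interferon-inducible subunits were low. PSMB9 had 0.43, 0, 0 and 1.19 FPKM in Control 1, Control 2, Cu 1 and Cu 3. PSMB10 had 1.05 and 1.21 FPKM in the Control pair against 4.55 and 1.71 FPKM in the Cu pair, and its log2 fold change of 0.87 (SE 0.45) was 0.35 without Cu 1. The listed immune cell genes had summed levels of 0.09 to 2.25 FPKM in the 4 libraries, highest in Cu 1 as were PSMB10, PSME1 and PSME2. Most of the sum in Cu 1 came from CD3E, with 1.68 FPKM there and 0 in the other libraries. PTPRC had 0.31 FPKM in Control 1 and 0.32 FPKM in Cu 1, CD79A was highest in Control 2 at 0.88 FPKM, and CD74 had 0.09 FPKM in Cu 1. The part of immune cells in the levels of PSMB10, PSME1 and PSME2 was not tested. On Sscrofa11.1, PSMB8 and PSMB9 lie next to each other on chromosome 7 with 10467 bases between them, and PSMB5 lies 7848 bases from PSMB11 on the same chromosome.

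The 19S ATPases, which unfold the substrate and open the gate, were the least abundant class of the standard particle. Their 6 genes summed to 98.3 and 126 FPKM in Control 1 and 2 and to 193 and 108 FPKM in Cu 1 and 3, so the groups overlapped. All 6 had a log2 fold change above 0, between 0.09 and 0.89, beside 64.3% of all tested genes above 0. Limma called none at an unadjusted p of 0.05, and in none were the groups apart. Under median-of-ratios scaling and quantile normalization 3 of the 6 were above 0. PSMC2 had 27.2 and 49.9 FPKM in the Control pair against 42.3 and 38.2 FPKM in the Cu pair. PSMC3, which had the highest ATPase level in Cu 1, had 22.1 and 28.6 FPKM in the Control pair against 73.9 and 21.7 FPKM in the Cu pair. PSMC5 had 2.61 and 2.75 FPKM in the Control pair against 12.8 and 2.39 FPKM in the Cu pair. For PSMC3 and PSMC5 the Cu 1 library alone was high and Cu 3 was the lowest of the 4. PSMC6, named after its values were seen, had 5.40 and 6.28 FPKM in the Control pair against 2.92 and 13.03 FPKM in the Cu pair, the opposite order of the Cu libraries. PSMC1 had 10.1, 12.8, 19.8 and 10.8 FPKM in Control 1, Control 2, Cu 1 and Cu 3, and PSMC4, named after its values were seen, had 30.9, 25.7, 41.2 and 21.8 FPKM in the same order.

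Of the 14 non-ATPase genes of the 19S cap 8 had a log2 fold change above 0 and 6 below 0, beside 64.3% of all tested genes above 0. None of the 14 had an unadjusted p of 0.05 or less. PSMD8, a lid subunit and the most abundant of them, had 297 and 335 FPKM in the Control pair against 363 and 185 FPKM in the Cu pair. PSMD14 (identifier 100156327), the deubiquitinating enzyme of the lid, had 21.2 and 36.0 FPKM in the Control pair against 36.2 and 52.6 FPKM in the Cu pair. It was the only non-ATPase gene with the Cu pair above the Control pair, by a narrow margin between Cu 1 and Control 2, at a log2 fold change of 0.64 (SE 0.40). PSMD1, a large scaffold subunit of the base named after its values were seen, was the only one with the Cu pair below the Control pair. It had 111.4 and 117 FPKM in the Control pair against 111.3 and 71.7 FPKM in the Cu pair, so Control 1 and Cu 1 were nearly the same.

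PSMD5, a chaperone of base assembly, had 92.2 and 135 FPKM in the Control pair against 44.7 and 109 FPKM in the Cu pair, the lowest log2 fold change of the 44 genes at -0.67 (SE 0.48). Cu 1 was low, and Cu 3 lay between the Control libraries. PSMD10, another chaperone of base assembly also called gankyrin, had 81.2 and 134 FPKM in the Control pair against 67.0 and 174 FPKM in the Cu pair. Its Cu libraries held both the lowest and the highest value. PSMD11, a lid subunit, had 71.7 and 90.8 FPKM in the Control pair against 94.9 and 28.2 FPKM in the Cu pair, so here Cu 3 was low. PSMD13, a lid subunit named after its values were seen, had 8.55 and 8.23 FPKM in the Control pair against 38.2 and 4.06 FPKM in the Cu pair, above the Controls in Cu 1 and below them in Cu 3. The other 7 genes (PSMD2, PSMD3, PSMD4, PSMD6, PSMD7, PSMD9 and PSMD12) had log2 fold changes between -0.18 and 0.36, and their groups overlapped. The ratio of the summed 20S rings to the summed 19S genes was 4.75 and 3.46 in Control 1 and 2 and 4.45 and 5.93 in Cu 1 and 3, with overlapping groups.

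Activators bind the ends of the core in place of the cap. PSME4, also called PA200, was the most abundant of them, with 57.9 and 60.2 FPKM in the Control pair against 31.2 and 70.4 FPKM in the Cu pair. PSME3, the nuclear activator PA28γ, had 21.2 and 35.7 FPKM in the Control pair against 34.8 and 18.02 FPKM in the Cu pair. The groups overlapped for both, with log2 fold changes of -0.32 and -0.13 (SEs 0.44 and 0.46). The interferon-inducible activator subunits PSME1 and PSME2, neighbours on chromosome 7 with 3959 bases between them, were low. PSME1 had 0.73 and 0.83 FPKM in the Control pair against 4.77 and 1.41 FPKM in the Cu pair, with the groups apart and a log2 fold change of 1.07 (SE 0.49). It reached 1 FPKM only in the Cu libraries, and with 1 FPKM required in every library PSME1 was not tested. PSME2 had 2.04 and 4.33 FPKM in the Control pair against 11.2 and 2.62 FPKM in the Cu pair, with overlapping groups. PSMF1, an inhibitor of the core also called PI31, stayed below 1 FPKM in all libraries, with 0.34 and 0.93 FPKM in the Control pair against 0.12 and 0.21 FPKM in the Cu pair.

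The assembly chaperones PSMG1 and PSMG2 act as a heterodimer in the building of the α ring, and so do PSMG3 and PSMG4. Their mRNAs were not matched in level. PSMG1 had 836 and 763 FPKM in the Control pair against 665 and 748 FPKM in the Cu pair, and the Cu pair lay below the Control pair, at a log2 fold change of -0.18 (SE 0.24). PSMG2 had 3.39 and 3.59 FPKM in the Control pair against 5.75 and 5.72 FPKM in the Cu pair, with the groups apart in the other direction, at a log2 fold change of 0.59 (SE 0.35). The ratio of PSMG1 to PSMG2 was 247 and 213 in Control 1 and 2 and 116 and 131 in Cu 1 and 3. It was lower in both Cu libraries than in both Control libraries analysed here. The authors' means, which include more than these libraries, were 766 in Control and 730 in Cu for PSMG1. For PSMG2 they were 4.37 and 5.60, and for both genes they lay nearer to each other than the means of these libraries.

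PSMG4 (identifier 100156905, chr7:1980295-1987946) had the largest log2 fold change of the 44 genes. It had 1.12 and 0.49 FPKM in the Control pair against 9.69 and 2.99 FPKM in the Cu pair, a log2 fold change of 1.88 (SE 0.55, limma adjusted p = 0.641). The Cu pair was entirely above the Control pair, and Cu 1 was again the higher. Without Control 2 it did not stay at an unadjusted p of 0.05, and without Cu 1 it did, at a log2 fold change of 1.17. With 1 FPKM required in every library PSMG4 was not tested. Its partner PSMG3 had 60.9 and 72.0 FPKM in the Control pair against 129 and 91.6 FPKM in the Cu pair, with the groups apart and a log2 fold change of 0.71 (SE 0.32). PSMG3 and PSMG4 were thus both higher in the Cu libraries analysed here, and their ratio ran from 13.3 in Cu 1 to 147 in Control 2. The authors' means of PSMG3, 80.4 in Control and 97.3 in Cu, lay nearer to each other than the means of these libraries.

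The spread within the Cu group was the larger one for most members, as the plot of differences between libraries of a group shows. The absolute difference between Cu 1 and Cu 3 had a median of 0.85 on the log2 scale over the 44 genes, against 0.31 between Control 1 and 2. Over all tested genes these medians were 0.56 and 0.27. Cu 1 and Cu 3 were apart by 1 or more on the log2 scale in 19 of the 44 genes, or 43.2%, beside 24.7% of all tested genes, and the Control libraries in 0 genes, beside 4.75%. The Cu difference was the larger one in 34 genes, or 77.3%, beside 70.5% of all tested genes, and Cu 1 was above Cu 3 in 28 genes, or 63.6%, beside 65.7%. By class the median difference between the Cu libraries was 1.30 for the ATPases, 0.66 for the non-ATPase proteins, 0.62 for the β ring and 0.54 for the α ring. In 11 genes, or 25% beside 14.2% of all tested genes, Cu 1 was over 2 times higher than every other library. These were PSMA6, PSMA7, PSMB5, PSMB7, PSMB10, PSMC3, PSMC5, PSMD13, PSME1, PSME2 and PSMG4. Cu 3 was over 2 times higher than the others in PSMA3 and PSMC6, beside 0.843% of all genes, and no member behaved in this way in a Control library. Cu 1 was also the library with the most genes at 1 FPKM or more, and the part of this in the members' levels was not tested. In pools of 3 whole oocytes a lower level in every oocyte and a contribution from fewer oocytes cannot be told apart.

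**Figure D4:**
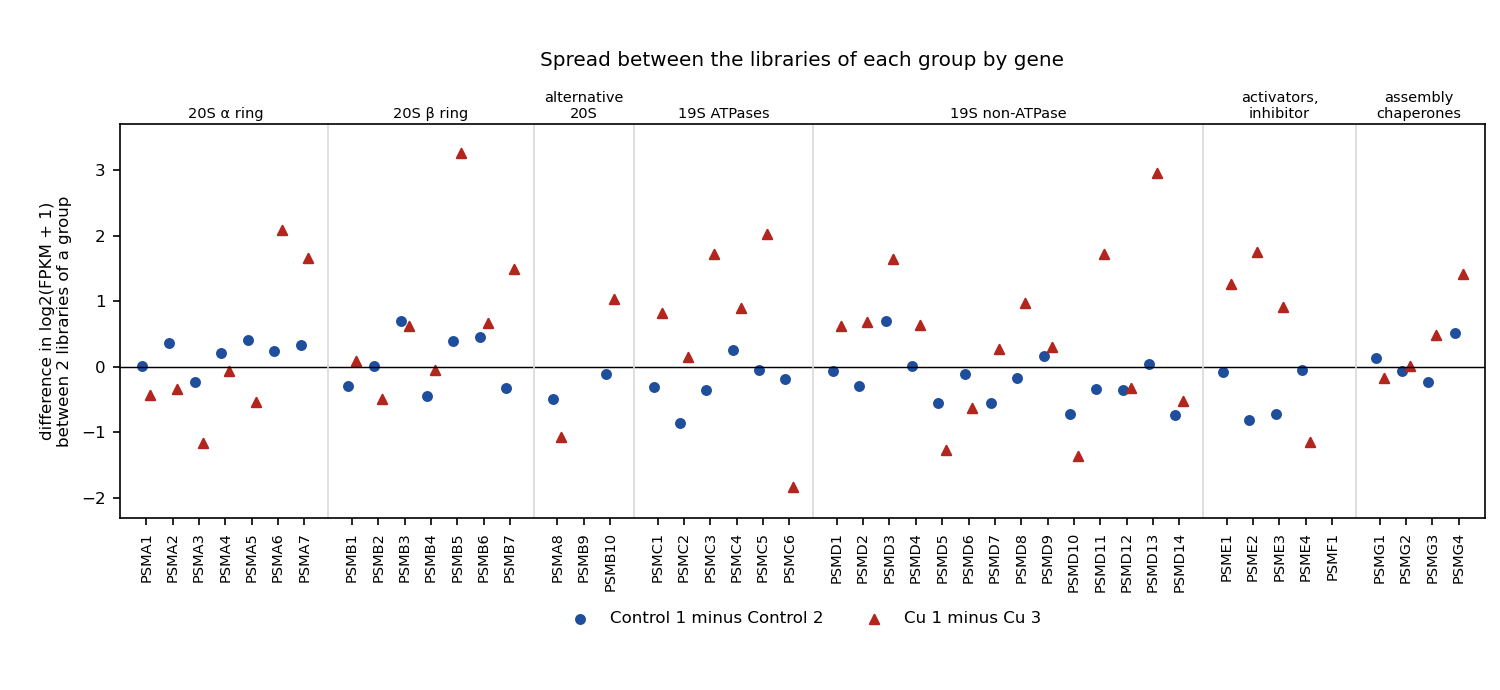
Difference in log2(FPKM + 1) between the libraries of each group for the 44 tested proteasome genes, as Control 1 minus Control 2 (blue circles) and Cu 1 minus Cu 3 (red triangles). No Control difference reaches 1 in size, while 19 of the Cu differences do, most of them with Cu 1 above Cu 3 (PSMB5, PSMD13, PSMA6 and PSMC5), and others such as PSMA3, PSMC6 and PSMD10 the other way.

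The authors' mean FPKM of each group, which include more than the libraries analysed here and carry no SD, were higher in Cu for 36 of the 44 genes, or 81.8%, beside 62% of all tested genes. For PSMB2, PSMD4, PSMD8, PSMD9 and PSME3 the authors' means pointed in the other direction than the libraries. The authors' means of Control and Cu were 28.9 and 59.2 for PSMB4, 227 and 363 for PSMB6, 40.1 and 111 for PSMB7, and 0.657 and 4.66 for PSMG4. For PSMB5 they were 14.1 and 43.8, for PSMA4 137 and 141, and for PSMG3 80.4 and 97.3. For each of these genes the authors' means lay nearer to each other than the means of the libraries analysed here.

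Genes that work with the proteasome but do not carry a PSM symbol were listed separately. Of the 30 genes 27 had values and 23 were tested, and POMP, the chaperone that completes the core, was listed without values. At an unadjusted p of 0.05, 3 of the 23 were higher in Cu, RPS27A and SEM1 among them, beside 5.58% of all tested genes. Only NGLY1 was lower, beside 1.43% of all tested genes. None passed an adjusted p of 0.05, beside 0%. The median log2 fold change of the 23 genes was 0.07, below the 0.16 of all tested genes. SEM1 (identifier 100155621), a small subunit of the 19S lid, had 2.73 and 5.12 FPKM in the Control pair against 125 and 8.44 FPKM in the Cu pair. Its log2 fold change of 2.85 (SE 1.15, limma adjusted p = 0.703) was 0.98 without Cu 1 and 4.72 without Cu 3. It stayed at an unadjusted p of 0.05 or less in 5 of the 7 other filters, scalings and variance models, and it did not without either Control library.

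Ubiquitin is made from several genes. UBB, a polyubiquitin gene, had 15631 and 15724 FPKM in the Control pair against 13873 and 17710 FPKM in the Cu pair. It ranked between 2 and 4 among all genes with values in every library, with a log2 fold change of -0.0002 (SE 0.22) and overlapping groups. RPS27A, which encodes ubiquitin fused to a ribosomal protein, had 46.9 and 73.4 FPKM in the Control pair against 272 and 211 FPKM in the Cu pair, a log2 fold change of 2.01 (SE 0.34, limma adjusted p = 0.631). The log2 fold change of RPS27A was 1.69 without Control 1, 2.33 without Control 2, 1.82 without Cu 1 and 2.19 without Cu 3. The authors' means of RPS27A, which include more than these libraries, lay nearer to each other, at 115 in Control and 218 in Cu. That of Control lay above both Control libraries.

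NFE2L1 encodes the transcription factor that raises proteasome genes when the protease is impaired, and NGLY1 and DDI2 process it into its active form. NFE2L1 had 3.88 and 2.55 FPKM in the Control pair against 9.49 and 3.18 FPKM in the Cu pair, with overlapping groups and a log2 fold change of 0.67 (SE 0.54). NGLY1 (identifier 100522951) had 399 and 420.01 FPKM in the Control pair against 237 and 225 FPKM in the Cu pair. The groups were well apart, at a log2 fold change of -0.82 (SE 0.25, limma adjusted p = 0.641), and the unadjusted p stayed at 0.05 or less under all 7 other filters, scalings and variance models but not without either Control library. The authors' means of NGLY1, which include more than these libraries, lay nearer to each other, at 370 in Control and 255 in Cu. The Control mean was below both Control libraries, and the Cu mean was above both Cu libraries. VCP, the ATPase that extracts ubiquitinated proteins for the proteasome, had 0.94 and 3.50 FPKM in the Control pair against 1.88 and 3.95 FPKM in the Cu pair, with overlapping groups.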

How the data were processed

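The authors filtered reads with SOAPnuke, mapped them with HISAT2 and Bowtie2 and computed expression with RSEM according to the methods of the paper. The submitters' processing notes name TopHat2 2.0.13, Cufflinks 2.2.1, Cuffnorm and Cuffdiff instead, with the build Sscrofa11.1, and which of them made the table is not given in the sources used here. The authors deposited FPKM with 2 decimals for each library, beside their mean FPKM of each group. FPKM keeps no read numbers, so no count model, interval or detection limit was computed.

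Groups and replicate numbers came from the sample titles. Genes that reached 1 FPKM in 2 or more libraries were compared as log2(FPKM + 1) with limma 3.58.1 in R 4.3.3 (variance trend, two-sided, Benjamini-Hochberg adjustment over all 8541 tested genes). The fit was also run on simulated data in which all libraries had equal spread, unlike the Cu and Control libraries here. With 2 libraries against 2, an exact permutation test cannot give a p below 0.333. RefSeq's gene table for Sscrofa11.1 held the identifiers of all 48 proteasome rows and gave their coordinates.

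Genes described with values were, in each class, the 3 with the largest absolute log2 fold change and the 2 most abundant, the catalytic and inducible subunits, PSMD14 and those at an unadjusted p of 0.05, with the same p limit and a few fixed genes (UBB, POMP, NFE2L1 and VCP) for the partner list, of which some results are not reported here. The members and lists were chosen with earlier results of these data known. Alternatives were a pseudocount of 0.1, other filters and scalings, no variance trend and leaving out each library.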

Additional observations from a re-analysis of the deposited data

How the results depend on the processing

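No paired analysis was possible because the groups share only replicate number 1. Each of 7 alternatives (a pseudocount of 0.1, no filter, 1 FPKM in every library, rescaling to a common total, median-of-ratios scaling, quantile normalization and no variance trend) left no proteasome gene at an adjusted p of 0.05. Under median-of-ratios scaling and quantile normalization the number of genes with both Cu libraries below both Control libraries was 5 and 4 instead of 2, and the α ring median was 0.36 and 0.37. The median of all tested genes was then 0.015 and -0.049, and the shares of all genes lying below under these scalings are not given here. The log2 fold change changed sign to -0.037 and -0.074 for PSMB2, -0.053 and -0.016 for PSMC2, -0.083 and -0.060 for PSMC4, -0.011 and -0.16 for PSMC6 and -0.13 and -0.14 for PSMD10 under these scalings, to -0.023 for PSMD10 after rescaling to a common total, and to -0.016 for PSMA1 and 0.26 for UBB after quantile normalization. The other scalings lower the median of all genes, and the causes of the single sign changes were not tested. Without each library in turn, the number higher at an unadjusted p of 0.05 ran from 1 to 19, the number lower from 0 to 4, the number at a log2 fold change of 1 from 5 to 13, and the numbers with groups apart from 16 to 27 upward and from 5 to 14 downward. With only 1 library left in a group, groups are apart more often by construction. The number at an adjusted p of 0.05 ran from 0 to 17, with 17 without Cu 3 and 2 without Cu 1. In these fits the lone Cu library is assumed to vary like the Control libraries, whereas the Cu libraries differed more from each other than the Control libraries did. The medians ran from 0.21 to 0.46 for all members, 0.16 to 0.62 for the α ring, 0.52 to 1.19 for the β ring, -0.096 to 0.64 for the ATPases and -0.20 to 0.21 for the non-ATPase proteins. The share of all FPKM stayed 0.090 to 0.10 percentage points higher in Cu. The log2 fold change changed sign without a library for 20 of the 45 genes followed. It ran from -0.18 to 0.18 for PSMA2, -0.43 to 0.11 for PSMA5, -0.29 to 1.37 for PSMA7, -0.11 to 0.39 for PSMB2 and -0.46 to 2.80 for PSMB5. The ranges were -0.074 to 0.75 for PSMC1, -0.31 to 0.55 for PSMC2, -0.20 to 1.52 for PSMC3, -0.35 to 0.54 for PSMC4, -0.12 to 1.91 for PSMC5 and -0.80 to 1.04 for PSMC6. They were -0.63 to 0.73 for PSMD10, -1.48 to 0.23 for PSMD11, -0.89 to 2.06 for PSMD13, -0.77 to 0.20 for PSMD8, -0.15 to 1.60 for PSME2, -0.58 to 0.33 for PSME3, -0.90 to 0.25 for PSME4, -0.18 to 0.18 for UBB and -0.25 to 0.96 for VCP. PSMB4 stayed between 0.99 and 1.43, PSMB7 between 0.94 and 2.44, PSMB6 between 0.54 and 1.21, PSMG4 between 1.17 and 2.59 and NGLY1 between -0.86 and -0.79. How precisely weakly expressed genes such as PSMG4 were measured is not known, since the depth is unknown.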
